A study of Homo sapiens with 6 samples.

Results

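Listed mitotic genes fell together in NUAK2-CR U251 cells: of 41 genes, 38 were lower in NUAK2-CR than in WT and none was higher. At the same threshold, an adjusted p-value under 0.05, 28.2% of all tested genes were lower and 26.3% higher. Of 108 further mitotic genes tested, 46 were lower and 23 higher. The 41 genes were listed for mitotic kinases, cyclins, the spindle checkpoint, the kinetochore, condensin and cytokinesis. The genes were chosen by symbol for their known roles in mitosis, with kinesin motors left out, and all 41 were found among the 28395 genes of the count table. U251 (U251MG) is an established human glioblastoma cell line. Bulk RNA was sequenced from 3 WT samples and 3 NUAK2-CR samples, in the latter of which NUAK2, a kinase of the AMPK-related family, had been targeted with CRISPR-Cas9. By the study's methods, the targeted cells were transduced with guide vectors carrying GFP and mCherry, sorted as single double-positive cells and grown as clones, and both groups were cultured in DMEM with serum. The labels name no clone and no control vector for the WT cells, and do not say whether the replicates were separate cultures, so p-values measure only the spread between these libraries.

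Cells enter mitosis when CDK1 bound to a B-type cyclin becomes active, a step opened by CDC25 phosphatases and closed by the kinases WEE1 and PKMYT1. Aurora A and PLK1 then build the spindle, condensin compacts the chromosomes, and the NDC80 complex ties each kinetochore to microtubules. The spindle checkpoint holds CDC20, the activator of the ubiquitin ligase APC/C, until every kinetochore is attached. Securin is then destroyed, separase cuts cohesin, and the central spindle proteins guide cytokinesis. Most of these genes are transcribed late in the cell cycle, in G2 and mitosis, under the DREAM, B-MYB-MuvB and FOXM1 complexes, so in a cell line they serve as readouts of dividing cells.

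Total counts per library ranged from 35310946 to 55574081 in WT and from 29648445 to 33776712 in NUAK2-CR. NUAK2 itself (gene 81788, chromosome 1, 205302063 to 205321745) had normalized counts of 1926, 1457 and 1580.1 across WT against 799, 961 and 849 across NUAK2-CR. Normalization used TMM factors and brought every library to the mean library size. Transcripts of the targeted gene were thus still counted, at 52.6% of WT (log2 change -0.93, SE 0.11, edgeR adjusted p = 1.8e-05). Glial markers were present: GFAP fell from 88323 ± 5494 to 14984 ± 1129 (SD, n = 3), whereas SOX9, which did not pass the test, lay between 8968 and 11366. Of 7 glial and glioma markers, 6 fell, and their summed level was 331744 to 367065 in WT and 144893 to 151667 in NUAK2-CR. Among markers of other cell types, the summed normalized counts of 3 immune markers were 7.52 to 26.0 in WT and 3.81 to 7.24 in NUAK2-CR, and of 3 epithelial markers 2.66 to 6.45 in WT and 0 to 4.82 in NUAK2-CR, with CD3E and KRT20 at 0 in every library. Of 3 endothelial markers 2 rose, PECAM1 and VWF, with a sum of 17.2 to 31.2 in WT and 84.4 to 90.2 in NUAK2-CR. Raw counts of PECAM1 were 2, 0 and 0 across WT against 12, 14 and 14 across NUAK2-CR. Its WT counts were thus under a floor of 3 counts. Of 3 neuronal markers 2 rose, SNAP25 and SYT1, with a sum of 449 to 583 in WT and 1357 to 1612 in NUAK2-CR, while RBFOX3 did not exceed 17.4. By the same test, 28.2% of all tested genes were lower and 26.3% higher at an adjusted p-value under 0.05. The part of these marker shifts in the results on mitotic genes was not tested. WT replicate 1 was the most deeply sequenced library.

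In edgeR's quasi-likelihood test with Benjamini-Hochberg adjustment over 14873 genes, 40 of the 41 genes had enough counts to be tested and 38 of these had an adjusted p-value under 0.05, each lower in NUAK2-CR. By the same threshold 54.5% of all tested genes were called, 28.2% as lower and 26.3% as higher. The log2 fold changes of the 40 had a median of -0.71, against -0.01 over all tested genes, and ran from -1.82 to -0.15. A log2 fold change under -1 was reached by 9 of the 40 genes, against 6.96% of all tested genes. None changed by more than 2 on the log2 scale, as 4.72% of all tested genes did. The NUAK2-CR values lay below every WT value for 38 of the 40 genes, as they did for 31.5% of all tested genes, and above every WT value for none of the 40, against 29.8% of all tested genes. Together the 41 genes took 11416 ± 649 CPM (the sum of their counts, scaled to library size) in WT and 6893 ± 206 in NUAK2-CR (SD, n = 3), or 60.4% of WT. In bulk RNA, fewer dividing cells and less RNA per dividing cell cannot be told apart.

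**Figure D1:**
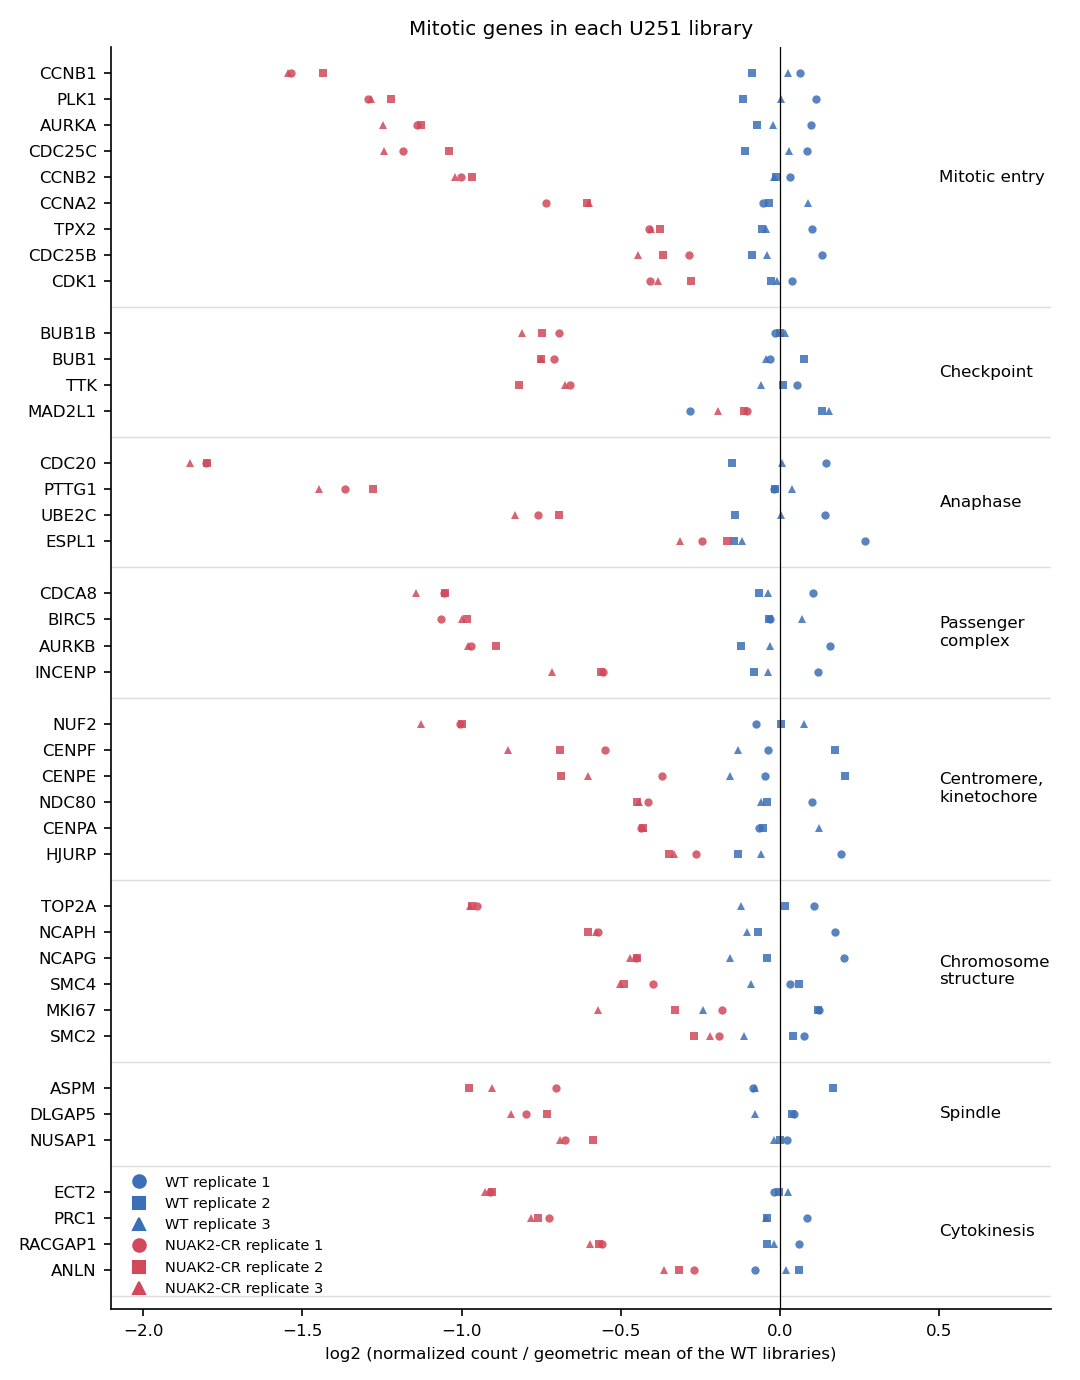
Normalized counts of the 40 tested mitotic genes in each library, as log2 of the ratio to the geometric mean of the 3 WT libraries (x axis), grouped by function and ordered by fold change; each point is 1 library. The NUAK2-CR points lie left of all WT points except in MAD2L1 and MKI67, and CDC20, CCNB1 and PTTG1 lie farthest left.

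The libraries of a group lay close together. The median of the 40 genes, relative to their WT mean on the log2 scale, stood at 0.06, -0.03 and -0.03 across the WT replicates, against -0.68, -0.69 and -0.73 across the NUAK2-CR replicates. The difference between the groups was thus several times the spread within either of them. By function, the median gene stood at 48.9% of its WT mean among the 4 anaphase genes, 50.1% among the 9 mitotic entry genes and 50.6% among the 4 chromosomal passenger genes. The medians were 57.7% for the 3 spindle factors, 60.4% for the 4 checkpoint genes, 63.1% for the 4 cytokinesis genes, 70.9% for the 6 tested kinetochore genes and 72.4% for the 6 chromosome structure genes.

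Among the regulators of mitotic entry, all 9 genes fell. CCNB1 (gene 891, chromosome 5, 69167150 to 69178245), the cyclin that activates CDK1 at entry into mitosis, had normalized counts of 19444, 17517 and 18961 across WT against 6424, 6887 and 6375 across NUAK2-CR. It fell to 35.2% of WT, a log2 fold change of -1.51 ± 0.07 (SE; edgeR adjusted p = 5.01e-09). CDK1 itself (gene 983, chromosome 10, 60778331 to 60794852) had normalized counts of 5497, 5254 and 5324 across WT against 4032, 4412 and 4110.3 across NUAK2-CR, and fell much less, to 78.1% of WT (log2 change -0.36, SE 0.07, edgeR adjusted p = 0.000584). The groups did not overlap for cyclin or kinase, and the decrease of the cyclin was the larger by far. CCNB2, the second B-type cyclin, fell to 50.1% of WT and CCNA2, the A-type cyclin of S phase and G2, to 63.9%.

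PLK1 (gene 5347, chromosome 16, 23678889 to 23690367), the kinase that drives centrosome maturation and mitotic entry, had normalized counts of 14441, 12333 and 13388 across WT against 5451, 5722 and 5480.4 across NUAK2-CR. The fitted log2 change was -1.27, with an SE of 0.07 and an edgeR adjusted p of 3.28e-08. AURKA (gene 6790, chromosome 20, 56369390 to 56392215), which encodes Aurora A, had normalized counts of 10304, 9149 and 9472 across WT against 4371, 4412 and 4053 across NUAK2-CR and a log2 fold change of -1.17 ± 0.07 (SE; edgeR adjusted p = 5.46e-08). Its activator and spindle anchor TPX2 changed less, with a log2 fold change of -0.40. The phosphatases that activate CDK1 were also unequal: CDC25C fell to 44.9% of WT and CDC25B to 77.5%.

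The spindle checkpoint genes BUB1, BUB1B and TTK, all 3 of them kinase-family proteins that act at unattached kinetochores, had log2 fold changes of -0.74, -0.75 and -0.72. BUB1B, which encodes BUBR1, went from 6209 ± 64.6 to 3692 ± 151 normalized counts (SD, n = 3; standard error of the log2 fold change 0.06, adjusted p = 1.03e-06 from edgeR's test). MAD2L1 (gene 4085), which encodes the MAD2 protein that sequesters CDC20, did not pass the test, with normalized counts of 2372, 3160.3 and 3213 across WT against 2684, 2666 and 2524 across NUAK2-CR and a log2 fold change of -0.15 (adjusted p = 0.243). Its lowest value of all was WT replicate 1; without that library its log2 fold change was -0.27 and its adjusted p 0.000957.

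CDC20 (gene 991, chromosome 1, 43358981 to 43363203) changed more than any other of the 40 genes. It had normalized counts of 26155, 21334 and 23778 across WT against 6786, 6807 and 6549 across NUAK2-CR, so all NUAK2-CR values lay far below the lowest WT value. It fell to 28.3% of WT, with a log2 fold change of -1.82 ± 0.08 (SE; edgeR adjusted p = 3.21e-09). PTTG1 (gene 9232, chromosome 5, 160421855 to 160428744), the securin gene, which has near-identical processed copies elsewhere in the genome, fell from 5725 ± 129 to 2225 ± 131 (SD, n = 3), so that its log2 change was -1.36. UBE2C, the ubiquitin-conjugating enzyme that works with APC/C, fell to 58.9% of WT. ESPL1, the separase gene, missed the threshold with normalized counts of 4029, 3027 and 3084 across WT against 2825, 2984 and 2692 across NUAK2-CR (log2 change -0.26, SE 0.10, edgeR adjusted p = 0.0511). Its groups did not overlap, but WT replicates 2 and 3 lay close to the NUAK2-CR values; without WT replicate 1 its log2 fold change was -0.10.

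Promoter windows were searched for 2 sequence motifs. The cell cycle genes homology region, or CHR, is the element bound by the MuvB core of the DREAM and B-MYB complexes, and CCAAT boxes bind the factor NF-Y; both are known from promoters of G2 and mitotic genes. RefSeq promoter windows of GRCh38.p14, each from 250 bases before to 50 after a transcription start, were found for 35 of the 41 genes (47 windows). For the CHR only the letters TTTGAA were searched, and other forms of it were not. TTTGAA was present on either strand in 30 of the 47 windows (63.8%), against 15.2% of all 35116 windows. CCAAT was present on either strand in 32 of the 47 windows (68.1%), against 34.6% of all windows, and both were present in 22 (46.8%) against 5.90%. The motifs can share no more than a single end base. The following 130 bases before the start are shown for 4 genes with large decreases and for ESPL1, which missed the threshold, so that their motif positions can be compared; capitals mark TTTGAA and CCAAT or their reverse complements.
CDC20 (chr1:43358851-43358980, plus strand): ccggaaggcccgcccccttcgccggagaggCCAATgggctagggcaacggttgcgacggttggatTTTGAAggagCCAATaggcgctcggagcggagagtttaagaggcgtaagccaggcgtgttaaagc
CCNB1 (chr5:69167020-69167149, plus strand): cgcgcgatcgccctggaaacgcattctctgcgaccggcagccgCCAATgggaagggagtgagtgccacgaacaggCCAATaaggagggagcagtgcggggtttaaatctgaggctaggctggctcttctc
PLK1 (chr16:23678759-23678888, plus strand): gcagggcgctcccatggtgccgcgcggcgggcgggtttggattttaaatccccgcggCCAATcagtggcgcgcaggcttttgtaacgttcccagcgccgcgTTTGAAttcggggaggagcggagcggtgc
CCNB2 (chr15:59105016-59105145, plus strand): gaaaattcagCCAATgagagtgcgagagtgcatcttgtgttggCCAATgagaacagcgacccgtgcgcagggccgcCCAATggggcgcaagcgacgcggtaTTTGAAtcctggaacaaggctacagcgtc
ESPL1 (chr12:53268169-53268298, plus strand): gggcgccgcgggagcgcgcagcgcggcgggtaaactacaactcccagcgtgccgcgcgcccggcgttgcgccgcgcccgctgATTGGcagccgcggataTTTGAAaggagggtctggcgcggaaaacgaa
In CDC20 a TTTGAA begins 65 bases before the start, between CCAAT boxes that begin 100 and 55 bases before it. In CCNB2 a TTTGAA begins 29 bases before the start, behind 3 CCAAT boxes that begin 120, 87 and 54 bases before it. PLK1 has a TTTGAA that begins 29 bases and a CCAAT that begins 73 bases before the start, and ESPL1 has one of each, that begin 31 and 48 bases before it. CCNB1 has CCAAT at 87 and 55 bases before the start and no TTTGAA in its window. PTTG1, CDC25C, CDCA8 and NUF2 are not shown, though they fell more than CCNB2. TTTGAA was in 0 of 2, 2 of 4, 1 of 1 and 1 of 1 of their windows. The fitted log2 changes had a median of -0.68 in the 26 tested genes with TTTGAA in a window and -0.69 for the 8 without. A gene without TTTGAA may hold a CHR in other letters. These medians therefore do not compare genes with and without a CHR. For CCAAT the medians were -0.75 for 26 tested genes with it and -0.47 for the 8 without. The genes with CCAAT ran from -1.82 to -0.15 and those without from -1.04 to -0.23, and the difference was not tested. A match is a description of the sequence, not of binding.

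All 4 genes of the chromosomal passenger complex fell. AURKB (gene 9212), which encodes its kinase Aurora B, had normalized counts of 5121, 4218 and 4499 across WT against 2345, 2477 and 2332 across NUAK2-CR and a log2 fold change of -0.95 ± 0.08 (SE; edgeR adjusted p = 8.91e-07). BIRC5, which encodes survivin, fell from 10418 ± 431 to 5149.6 ± 155 (SD, n = 3), or 49.4% of WT. CDCA8, which encodes borealin, fell to 47.2% of WT. INCENP, the scaffold that holds the complex together, changed least of the 4, with normalized counts of 7155, 6228 and 6412 across WT against 4482, 4455 and 4009 across NUAK2-CR and a log2 fold change of -0.61 (adjusted p = 2.59e-05).

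At the centromere and kinetochore the median decrease was smaller, and all 6 of the 7 genes that could be tested fell. CENPA, the histone H3 variant that marks the centromere, had normalized counts of 1514, 1526 and 1723 across WT against 1172, 1175 and 1175 across NUAK2-CR (log2 change -0.43, SE 0.08, edgeR adjusted p = 0.000507). Its chaperone HJURP had a log2 fold change of -0.32, which was -0.21 without WT replicate 1 (edgeR adjusted p = 0.0052). CENPF and CENPE, large proteins of the outer kinetochore, had -0.70 and -0.56. Within the NDC80 complex, NUF2 (gene 83540, chromosome 1, 163321954 to 163355759) had normalized counts of 2969, 3135 and 3301 across WT against 1562, 1567 and 1435 across NUAK2-CR, with a log2 fold change of -1.04 ± 0.07 (SE; edgeR adjusted p = 1.67e-07). Its direct partner NDC80 had normalized counts of 4347, 3944 and 3894 across WT against 3044, 2974 and 2982 across NUAK2-CR (log2 change -0.44, SE 0.07, edgeR adjusted p = 0.000158). SPC25, a further subunit of that complex, had raw counts of 10, 4 and 5 across WT against 10, 10 and 1 across NUAK2-CR and was not tested. SKA1, another microtubule-binding kinetochore gene outside the list, had 2, 1 and 0 counts in WT and 0 in every NUAK2-CR library, at or under a floor of 3 counts. Whether these near-zero counts of SPC25 and SKA1 came from the cells or from the annotation and counting was not tested. SPC24, the partner subunit of SPC25, had normalized counts of 1463, 1105 and 1197 across WT against 1008, 1172 and 1054 across NUAK2-CR and did not pass the test (edgeR adjusted p = 0.103).

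All 6 genes of condensin and chromosome structure fell, SMC2 and MKI67 by little. TOP2A (gene 7153, chromosome 17, 40388525 to 40417896), the topoisomerase that untangles sister chromatids, had normalized counts of 47163, 44254 and 40222 across WT against 22654, 22383 and 22298 across NUAK2-CR. The fitted log2 change was -0.97, with an SE of 0.07 and an edgeR adjusted p of 3.08e-07. The condensin I subunits NCAPH and NCAPG had -0.59 and -0.47. The ATPase subunits SMC4 and SMC2, which condensin I and II share, had -0.47 and -0.23. NCAPG shares 1634 of its 4587 transcript bases with exons of LCORL on the opposite strand, and CCNA2 shares 254 of 2748 with EXOSC9. The study's methods give default settings for featureCounts, which do not use strand, so reads from such overlaps cannot be told apart and counts of these 2 genes are less certain. PRC1 and NUSAP1 are also less certain, since they share 2716 of 3072 and 2213 of 2263 transcript bases with same-strand genes of GENCODE that have no row in the count table.

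MKI67 (gene 4288, chromosome 10, 128096659 to 128126423), which encodes the proliferation marker Ki-67, gave normalized counts of 42185, 42014 and 32768 across WT against 34157, 30814 and 26055 across NUAK2-CR. The highest NUAK2-CR library thus lay above the lowest WT library, and the difference, though past the threshold, was among the smallest of the 40 genes (log2 change -0.36, SE 0.11, edgeR adjusted p = 0.0158). It did not pass without WT replicate 2 (adjusted p = 0.0559) or without NUAK2-CR replicate 3 (adjusted p = 0.0851). SMC2 did not pass without NUAK2-CR replicate 2 (adjusted p = 0.0706).

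The spindle factors ASPM, DLGAP5 and NUSAP1, which act on spindle poles and microtubule bundles, fell by 0.86, 0.79 and 0.65 on the log2 scale. ASPM went from 8605 ± 881 to 4732 ± 474 normalized counts (SD, n = 3). All 4 cytokinesis genes fell. ECT2, the exchange factor that activates RHOA at the cleavage site, had normalized counts of 8146, 8245 and 8404 across WT against 4397, 4414 and 4349.6 across NUAK2-CR, with the tightest replicates of the group (log2 change -0.91, SE 0.06, edgeR adjusted p = 1.23e-07). PRC1, which bundles the central spindle, and RACGAP1, a centralspindlin subunit, had -0.76 and -0.58. ANLN, the contractile ring scaffold anillin, changed least, with normalized counts of 14638, 16105 and 15641 across WT against 12803, 12408 and 11993 across NUAK2-CR and a log2 fold change of -0.32 (adjusted p = 0.00143).

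Levels per length changed their order. Normalized counts were divided by the length in kilobases of each gene's principal transcript in GENCODE v44. In WT, CDC20 had the highest level of the 41 genes at 14406 per kilobase, followed by UBE2C at 11069, CCNB1 at 9187 and PTTG1 at 8006. In NUAK2-CR, UBE2C came first at 6515, followed by NUSAP1 at 4625, CDC25B at 4611 and TPX2 at 4471, then by CDC20 at 4071. Apart from SPC25, the lowest levels per kilobase were those of ESPL1 in WT (511) and CDC25C in NUAK2-CR (401).

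Ratios of raw counts of 2 genes within a library need no scaling between libraries. They were compared for 12 pairs of functional partners or paralogs, chosen with earlier results of these data known. In 11 of the pairs the WT and NUAK2-CR ratios did not overlap. The share of all gene pairs that separate in this way was not computed. Taken singly, 31.5% of all tested genes lay below every WT value in NUAK2-CR and 29.8% above. In each pair the gene written first was the one with the larger decrease, so the direction of the ratio follows from that order. The count ratio CCNB1/CDK1 was 3.54, 3.33 and 3.56 across WT against 1.59, 1.56 and 1.55 across NUAK2-CR. For CDC20/MAD2L1, the APC/C activator and the protein that sequesters it, the ratio was 11.0, 6.75 and 7.40 across WT against 2.53, 2.55 and 2.59 across NUAK2-CR. The securin to separase ratio PTTG1/ESPL1 was 1.40, 1.87 and 1.90 across WT against 0.785, 0.791 and 0.779 across NUAK2-CR. In each of these 3 pairs the NUAK2-CR ratios were tightly grouped, far below the lowest WT ratio.

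The other pairs shown moved less. NUF2/NDC80 was 0.683, 0.795 and 0.848 across WT against 0.513, 0.527 and 0.481 across NUAK2-CR. AURKA/TPX2 was 0.470, 0.464 and 0.477 across WT against 0.284, 0.280 and 0.262 across NUAK2-CR. TOP2A/MKI67, 2 genes used as proliferation markers, was 1.12, 1.05 and 1.23 across WT against 0.663, 0.726 and 0.856 across NUAK2-CR. The exception was CENPA/HJURP, with 0.255, 0.321 and 0.345 across WT against 0.270, 0.288 and 0.284 across NUAK2-CR, where the groups overlapped. In exact two-sided permutation tests of the log2 ratios, the 11 pairs without overlap had p = 0.1, the smallest that 3 libraries against 3 allow, and an adjusted p of 0.109 over the 12 pairs; CENPA/HJURP had p = 0.4. This design cannot reach 0.05 in such a test.

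**Figure D2:**
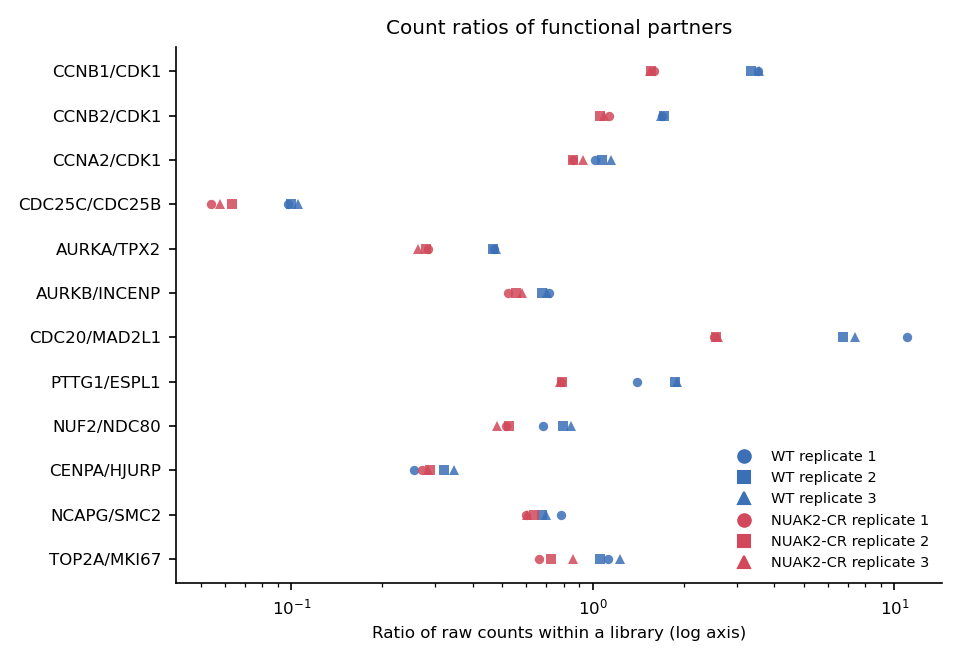
Ratio of the raw counts of 2 partner genes within each library (log x axis) for 12 pairs (y axis); each point is 1 library. The gene with the larger decrease is written first in each pair. NUAK2-CR ratios lie below all WT ratios in every pair except CENPA/HJURP, and are most tightly grouped for PTTG1/ESPL1, at 0.779 to 0.791.

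Fold changes differed between chromosome regions, and the mitotic genes were set against their surroundings. For each gene the regional level was taken as the median log2 fold change of its 50 nearest tested neighbours on the same chromosome, by start; these medians ranged from -0.58 to 0.30. All 40 genes lay below the median of their region, and the median of the 40 differences was -0.63. The share of all tested genes that lie below the median of their region was not computed. CDC20 lies where that median was -0.58 and NUF2 where it was -0.58, both on chromosome 1. Relative to the region, CDC20 was at -1.25 and PLK1, in a region at 0.12, was at -1.39, the largest such difference. AURKA was at -1.24 and CCNB1 at -1.23.

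By the same measure NUF2 was at -0.47 and NDC80 at -0.46. The standard errors of fold changes, 0.07 for NUF2 and for NDC80, leave out the spread of the neighbours. TOP2A, in a chromosome 17 region at -0.54, was at -0.43. MKI67, in a chromosome 10 region at -0.31, was at -0.05, beside a standard error of 0.11 for its own fold change. NUAK2 itself lies on chromosome 1 in a region at -0.44. Without the 5 genes on chromosome 1, the median log2 fold change of the mitotic genes was -0.65. The part of these regional levels in each result was not tested.

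**Figure D3:**
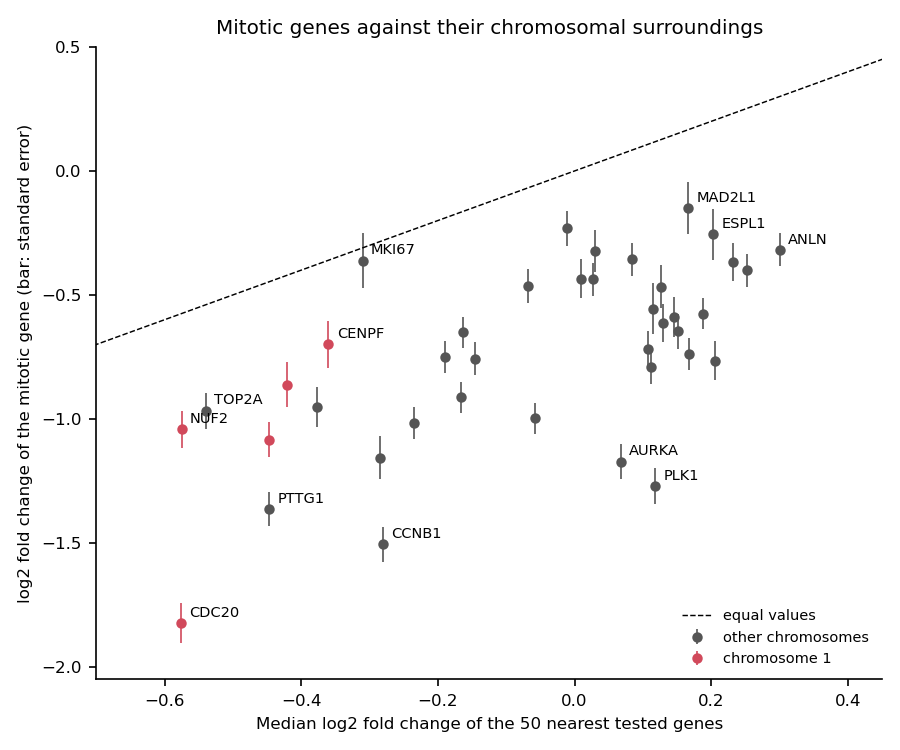
Log2 fold change of each of the 40 tested mitotic genes with its standard error (y axis) against the median log2 fold change of the 50 nearest tested genes (x axis); the dashed line marks equal values, and the 5 genes of chromosome 1 are in red. All 40 points lie below the line; MKI67 lies closest to it and PLK1 farthest.

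Of 20 genes listed as transcriptional regulators of mitotic genes, all of which were tested, 8 were higher and 6 lower in NUAK2-CR at an adjusted p-value under 0.05, with a median log2 fold change of 0.06. Over all tested genes 26.3% were higher and 28.2% lower, so the count of lower regulators was near that share. FOXM1, an activator of G2 and mitotic genes, had normalized counts of 13952, 12559 and 13002 across WT against 10811, 10215 and 9739 across NUAK2-CR and fell to 77.9% of WT (log2 change -0.36, SE 0.07, edgeR adjusted p = 0.000853). MYBL2, which encodes B-MYB, rose slightly, with normalized counts of 6722, 5239 and 5753 across WT against 7012, 7469 and 7163 across NUAK2-CR (log2 fold change 0.29, adjusted p = 0.0138). Its region stood at 0.21, and its adjusted p was 0.0566 without WT replicate 2 and 0.0601 without NUAK2-CR replicate 2. LIN9, a subunit of the MuvB core, fell to 56.8% of WT in a region of chromosome 1 at -0.40, while LIN54, the MuvB subunit that binds the CHR, was at 105% (adjusted p = 0.465).

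Of the 8 E2F genes in that list, a grouping made after their values were seen, 5 were higher, 1 was lower and 2 were not called. Over all tested genes 26.3% were higher and 28.2% lower. E2F1 (gene 1869), an activator of S phase genes, had normalized counts of 2409, 2007 and 2232 across WT against 4122, 4550.2 and 3977 across NUAK2-CR, so that every NUAK2-CR library lay above every WT library. The fitted log2 change was 0.93, with an SE of 0.08 and an edgeR adjusted p of 1.5e-06. E2F1 lies in a region at 0.25, and the regions of E2F8, E2F7, E2F3 and E2F2 stood at 0.09, -0.07, -0.21 and -0.45. E2F8, E2F7, E2F3 and E2F2 also rose, by 0.92, 0.62, 0.44 and 0.29 on the log2 scale, E2F5 fell by 0.40 (edgeR adjusted p = 0.0235) and E2F6 had -0.07 (adjusted p = 0.567). TFDP2, which encodes a dimer partner of E2F1, rose by 0.62, and it, TFDP1 and RB1 were picked after their values were seen. The other partner gene TFDP1 and the retinoblastoma gene RB1 fell, to 74.3% and 64.8% of WT, both in regions of chromosome 13 with medians of -0.43 and -0.51. E2F4, an E2F of the DREAM complex, was at 102% of WT (adjusted p = 0.835), and its log2 fold change ran from -0.034 to 0.118 when single libraries were left out.

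Of 14 further regulators of mitotic entry, 4 were higher and 7 lower, beside 26.3% higher and 28.2% lower over all tested genes. CDC25A, the third CDC25 phosphatase, which also acts at the start of S phase, rose to 155% of WT, with normalized counts of 777, 634 and 748 across WT against 1026, 1225 and 1099 across NUAK2-CR (log2 change 0.63, SE 0.10, edgeR adjusted p = 0.00021). The inhibitory kinases WEE1 and PKMYT1, named after their values were seen, rose to 138% and 141%. CDC25A lies in a region at 0.04, WEE1 in one at 0.30 and PKMYT1 in one at 0.15. NEK2, a centrosomal mitotic kinase, fell most of this list, with normalized counts of 4137, 4389 and 4139.5 across WT against 1356, 1573 and 1287 across NUAK2-CR and a log2 fold change of -1.59 (adjusted p = 1.29e-08). NEK2 lies in a region at -0.30. BORA, which helps Aurora A to activate PLK1, fell to 43.7% of WT in a region at -0.46; it too was named after its value was seen.

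**Figure D4:**
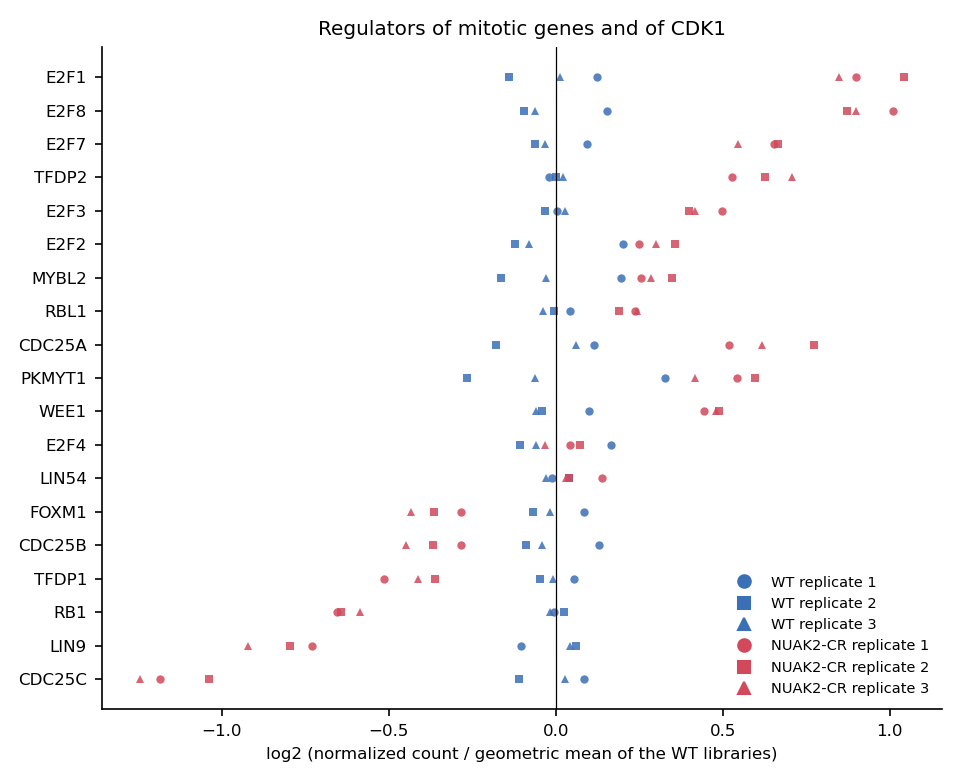
Regulators of mitotic transcription and of CDK1 in each library, as log2 of the ratio to the geometric mean of the WT libraries (x axis); each point is 1 library, and the genes other than FOXM1, MYBL2, E2F1, E2F4, LIN54, LIN9 and CDC25A were picked after their values were seen. E2F1 and E2F8 lie farthest right in NUAK2-CR and CDC25C farthest left, while E2F4 overlaps between the groups.

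Further mitotic genes were taken from lists by function. Over all 8 further lists, 108 of 109 genes were tested, 46 were lower and 23 higher in NUAK2-CR, and the median log2 fold change was -0.11, beside 28.2% lower and 26.3% higher over all tested genes. Of 25 tested centromere and kinetochore genes, 12 were lower and 4 higher; PMF1, of the MIS12 complex, had -1.05 in a region at -0.43 and DSN1, of the same complex, 0.48 in a region at 0.25. Of 10 checkpoint and shugoshin genes, 6 were lower and 1 higher: BUB3, the partner of BUB1 and BUBR1, fell to 43.7% of WT in a region at -0.68, and KNTC1, of the complex that recruits dynein to kinetochores, rose to 148%.

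Of the 4 other condensin subunits, NCAPD2 of condensin I fell (log2 fold change -0.62) and NCAPG2 of condensin II fell (log2 fold change -0.32), while NCAPD3 and NCAPH2 of condensin II had 0.21 and 0.08 and did not pass. The NCAPH2 value ran from -0.031 to 0.21 when single libraries were left out. Of 11 cohesin genes, 2 were lower and 4 higher, beside 28.2% lower and 26.3% higher over all tested genes. The log2 fold changes ran from -0.38 for PDS5B to 0.38 for PDS5A, both of which regulate cohesin on chromatin. PDS5B lies in a region at -0.51 and was at 0.12 relative to it, and PDS5A in a region at 0.30 and was at 0.08. Of 17 genes for APC/C subunits, partners and its inhibitor, 8 were lower and 2 higher, beside the same shares of all tested genes. UBE2S, the enzyme that extends ubiquitin chains on APC/C targets, fell to 50.2% of WT, and FBXO5, the APC/C inhibitor EMI1, rose to 134%. Of 7 cytokinesis genes, 3 were lower, led by CEP55, an abscission factor, at -0.69; CIT, the citron kinase gene, had -0.20 (adjusted p = 0.0409 from edgeR's test), and did not pass when all libraries were thinned to the smallest (adjusted p = 0.0732) or without any 1 of WT replicates 1 and 2 and NUAK2-CR replicates 2 and 3 (adjusted p of 0.0704 to 0.182).

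**Figure D5:**
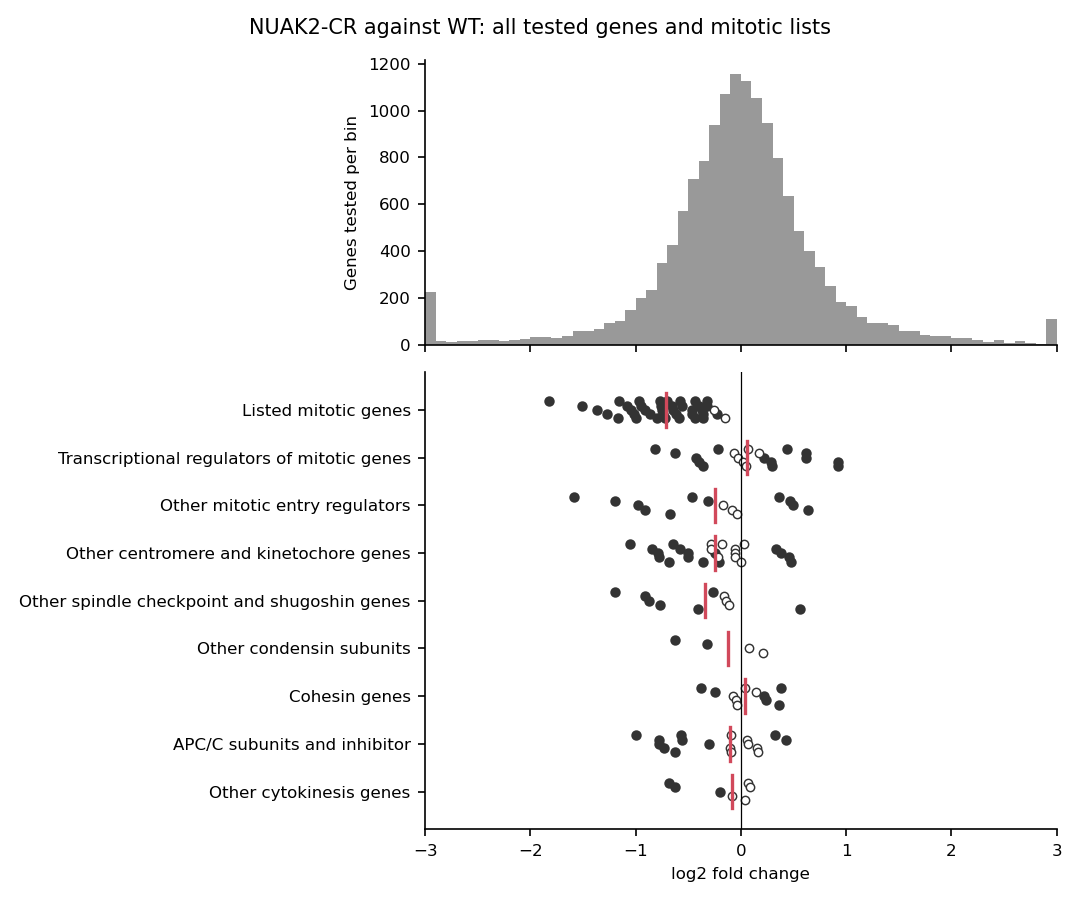
Log2 fold changes of NUAK2-CR against WT: the upper panel counts all 14873 tested genes in bins of 0.1, with 324 genes beyond -3 or 3 placed in the end bins, and the lower panel shows each tested gene of the mitotic lists (filled, adjusted p under 0.05; open, not passed; red bar, list median). The listed mitotic genes all lie left of 0 around a median of -0.71, whereas each other list spreads to both sides of 0.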

How the data were processed

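Total RNA of 3 WT and 3 NUAK2-CR U251 samples was sequenced as paired-end stranded mRNA libraries. Read trimming (Trimmomatic), alignment to the hg38 genome (HISAT2) and gene counting (featureCounts) were done by the authors; the deposited values are raw counts, listed by NCBI gene identifier, and 27745 of 28395 identifiers were matched to a RefSeq symbol. Default settings were used, so counting did not use strand; the annotation is not given in the sources used here. Groups were taken from the sample titles. The study's DESeq2 test was run as an alternative.

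Counts were tested in R 4.3.3 with edgeR 4.0.16 (filterByExpr, TMM, glmQLFit, glmQLFTest, prior count 0.125) on group, with Benjamini-Hochberg adjusted p-values across all 14873 tested genes. Standard errors are the absolute log2 fold change divided by the square root of F. The fit was tested on simulated data. Replicate numbers did not pair the samples. The genes, lists, pairs and tests were chosen with earlier results of these data known. Named genes are the highest and lowest tested gene of each functional group, 10 further core mitotic genes, 5 transcription factors or partners (FOXM1, MYBL2, E2F1, E2F4 and LIN54), and the highest and lowest called gene of each further list; other genes given by value were picked with their values known. Alternatives were DESeq2 1.42.0, RLE and library-size scaling, filters of 1 count in all and of 10 counts in every library, each library left out, a replicate block, and thinning to 29648445 counts. For a count of 0 the floor was 3 counts, which covers counting error only. Figures and exact tests used Python 3.11.15, SciPy 1.17.1 and matplotlib 3.10.9.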

Additional observations from a re-analysis of the deposited data

How the results depend on the processing

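Under 13 alternatives the count of the 41 mitotic genes lower in NUAK2-CR lay between 37 and 39 and none was ever higher; the median log2 fold change kept its sign. ESPL1 joined the lower genes under DESeq2 (adjusted p = 0.0441), without a filter, with at least 10 counts in every library, under the replicate block, and without WT replicate 2 or 3. Of 91 recomputed counts and medians, 90 stayed within the limits set (1.5 times the count, or the spread between replicates for the median). The exception was the number of all genes past an absolute log2 fold change of 2, which went from 702 to 339 when at least 10 counts were required in every library, a filter that leaves out genes with few counts in either group. Of 559 values for single named genes, 539 kept their direction and side of the threshold, 10 lost the threshold, 7 passed it and 3 reversed. All 3 were E2F4, not called in any fit, whose log2 fold change of 0.022 ran from -0.034 to 0.118 when single libraries were left out and was negative without WT replicate 2, WT replicate 3 or NUAK2-CR replicate 2. With the replicate number as a block, 39 of the mitotic genes were lower, against 38 without it; the deviations of same-numbered libraries from their group means correlated at 0.04, -0.04 and 0.05, so the numbers were not taken to pair the samples. The counts of SPC25 and SKA1 were too low to test.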

Other observations

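The 3 libraries of a group differed in how high they stood across the mitotic genes. WT replicate 1, the deepest library, had the highest normalized count of the WT libraries in 26 of the 40 tested genes, WT replicate 2 in 6 and WT replicate 3 in 8. NUAK2-CR replicates 1 and 2 had the highest count of their group in 19 genes each and NUAK2-CR replicate 3 in 2. The summed counts of the 41 genes were 12121, 11283 and 10843 CPM across the WT replicates, against 7088, 6913 and 6677 CPM across the NUAK2-CR replicates, so this order within groups was small beside the difference between them.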
